A study of Mus musculus with 16 samples.

Results

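The genes described here are 42 genes of the cell cycle and of DNA replication, taken by gene symbol. Of these, 15 act in G1, when a cell decides whether to copy its DNA, 11 act in DNA replication, and 16 act in G2 and mitosis. A locus of exactly that symbol was found for 40 of the 42 names among 23282 named loci, with 14 G1, 11 replication and 15 mitosis genes. Ccnd1 and Foxm1 were found only in loci joined with a second symbol, Mir3962 for Ccnd1 and 4933413G19Rik for Foxm1. The values of these 2 loci are given, and they stay out of every count and median. All 40 genes and both joined loci passed the filter on low counts.

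RNA was sequenced from embryoid bodies, floating aggregates of differentiating stem cells, on day 6. All groups were mouse embryonic stem cells with a GFP reporter knocked in at Rx (Rx:GFP KI), differentiated by the SFEBq method in GMEM with 5% KSR, and given 2% matrigel on day 1. The T48h rescue and the T12h rescue were Wdr5 knockout cells with an inducible human WDR5 (hWDR5), to which Dox (doxycycline) was added at the times labelled T48h and T12h. The KO group was Wdr5 KO clone #3 without Dox, and the WT group was untreated. Each group had 2 biological duplicates, each run on the sequencer in 2 technical runs that were summed here, which gave 8 libraries, called a and b within a group. The knockout is 1 clone, the labels do not name the promoter of the human transgene in the rescues, and no label describes the duplicates as independent cultures. The p-values below rest on the spread between libraries, and this spread may be technical.

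The cell cycle is driven by cyclins, which bind and activate cyclin-dependent kinases (CDKs). In G1, D-type cyclins with Cdk4 or Cdk6, and then E-type cyclins with Cdk2, phosphorylate the retinoblastoma protein and release the E2F factors, which switch on genes for DNA synthesis. Inhibitors of the INK4 family (Cdkn2a, Cdkn2b, Cdkn2c) bind Cdk4 and Cdk6, and those of the CIP/KIP family (Cdkn1a, Cdkn1b, Cdkn1c) bind cyclin-CDK complexes more widely. Mouse embryonic stem cells cycle fast with a short G1, and G1 lengthens as they differentiate. Wdr5 encodes a shared subunit of the MLL/COMPASS complexes that methylate histone H3 at lysine 4.

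Values are in CPM, a scale of edgeR on which fragment counts are divided by the TMM-scaled size of each library, and each test is edgeR's quasi-likelihood test with Benjamini-Hochberg adjustment over all 16130 genes tested, at an adjusted p under 0.05. Named loci held 32476666 to 65687431 counts per library, and a library of the KO was the deepest. The mouse Wdr5 locus was at 280 and 294 CPM in the T48h rescue, 329 and 337 CPM in the T12h rescue, 32.5 and 28.4 CPM in the KO and 186 and 187 CPM in WT. In the rescues this value does not separate mouse Wdr5 transcripts from reads of the human transgene that may align there. These are bulk samples, in which fewer cells of a type and less RNA per cell cannot be told apart. The groups also differed in cell type markers. The summed level of 10 eye field and neural progenitor genes was 80.4 to 85.3 CPM in the T48h rescue, 2230 to 2260 CPM in the T12h rescue, 335 to 346 CPM in the KO and 2020 to 2100 CPM in WT. All 10 were lower in the KO than in WT and higher in the T12h rescue than in the KO. The sum of 8 pluripotency genes was 41.6 to 48.8 CPM in the T48h rescue, 50.2 to 55.8 CPM in the T12h rescue, 674 to 678 CPM in the KO and 122 to 125 CPM in WT, with all 8 higher in the KO than in WT. The sum of 8 cardiac and lateral plate mesoderm genes was 2840 to 2900 CPM in the T48h rescue, 98.0 to 113 CPM in the T12h rescue, 232 to 244 CPM in the KO and 98.9 to 101 CPM in WT, with all 8 higher in the T48h rescue than in the KO. The sum of 6 markers of postmitotic neurons, which have left the cell cycle, was 26.4 to 31.1 CPM in the T48h rescue, 47.9 to 49.7 CPM in the T12h rescue, 92.8 to 95.7 CPM in the KO and 56.4 to 57.6 CPM in WT. Sums of 6 endoderm markers were 305 to 313 CPM in the T48h rescue, 115 to 140 CPM in the T12h rescue, 355 to 356 CPM in the KO and 108 to 110 CPM in WT. Sums of 6 fibroblast markers were 774 to 841 CPM in the T48h rescue, 95.2 to 120 CPM in the T12h rescue, 16.1 to 18.1 CPM in the KO and 54.3 to 60.8 CPM in WT, with Dcn at 0 in the T12h rescue and no other listed marker at 0 in a group. Some lists were mixed in the KO against WT and in the rescues against the KO, so their sums do not stand for each gene. In the KO against WT, 3 neuron markers were higher and 2 lower, and 5 endoderm markers were higher and 1 lower. Of the fibroblast markers 1 was higher and 1 lower there, and of the cardiac genes 5 were higher and 2 lower. In the T48h rescue against the KO, 3 eye field genes were higher and 6 lower, and 3 fibroblast markers were higher and 1 lower. The endoderm and neuron lists each had 1 higher and 5 lower there. In the T12h rescue against the KO, 2 cardiac genes were higher and 4 lower, and 2 neuron markers were higher and 3 lower. The endoderm list had 1 higher and 4 lower there, and the fibroblast list 1 and 2. The part of these cell types in the results below was not tested.

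Most of the genes were lower in KO than in WT embryoid bodies, and most were higher in each rescue than in the KO. Of the 40 genes, 4 were higher and 28 lower in the KO than in WT, against 31.7% higher and 32.4% lower among all genes tested. In the T12h rescue against the KO, 31 were higher and 4 lower, where all genes gave 32.8% and 32.1%. In the T48h rescue against the KO, 28 were higher and 4 lower, where all genes gave 34.2% and 33.2%. The median log2 fold change of the 40 genes was -0.41, 0.47 and 0.60 in these 3 comparisons, and that of all genes tested was 0.00, -0.01 and 0.00. The T12h and T48h comparisons share the KO libraries, so their counts are not independent.

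Against WT, 2 of the 40 genes (Cdk4 and Mcm3) were higher and 0 lower in the T12h rescue by edgeR, against 7.9% higher and 6.11% lower among all genes. At an unadjusted p under 0.05 the test had 2 lower, and DESeq2 and limma called 1. In the T48h rescue against WT, 8 were higher and 9 lower, against 23.9% and 23.4% among all genes. With scaling by library size alone, 5 were higher and 17 lower. Between the rescues, 11 genes were higher and 12 lower in the T48h than in the T12h rescue, against 24.9% and 25.3% of all genes, and 19 were lower with library size alone. That scaling moved the median of all genes by -0.18 in the first of these comparisons and by -0.14 in the second. A missing call between the T12h rescue and WT does not show that a gene was at its WT level. Ccnb1, Cdk2 and Tyms passed the test in none of the 6 comparisons. Under alternative settings some were called. Ccnb1 was called in the T12h rescue against the KO under 5 and in the T48h against the T12h rescue under 4. In the T48h against the T12h rescue, Tyms was called under 2 and Cdk2 under 1.

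**Figure D1:**
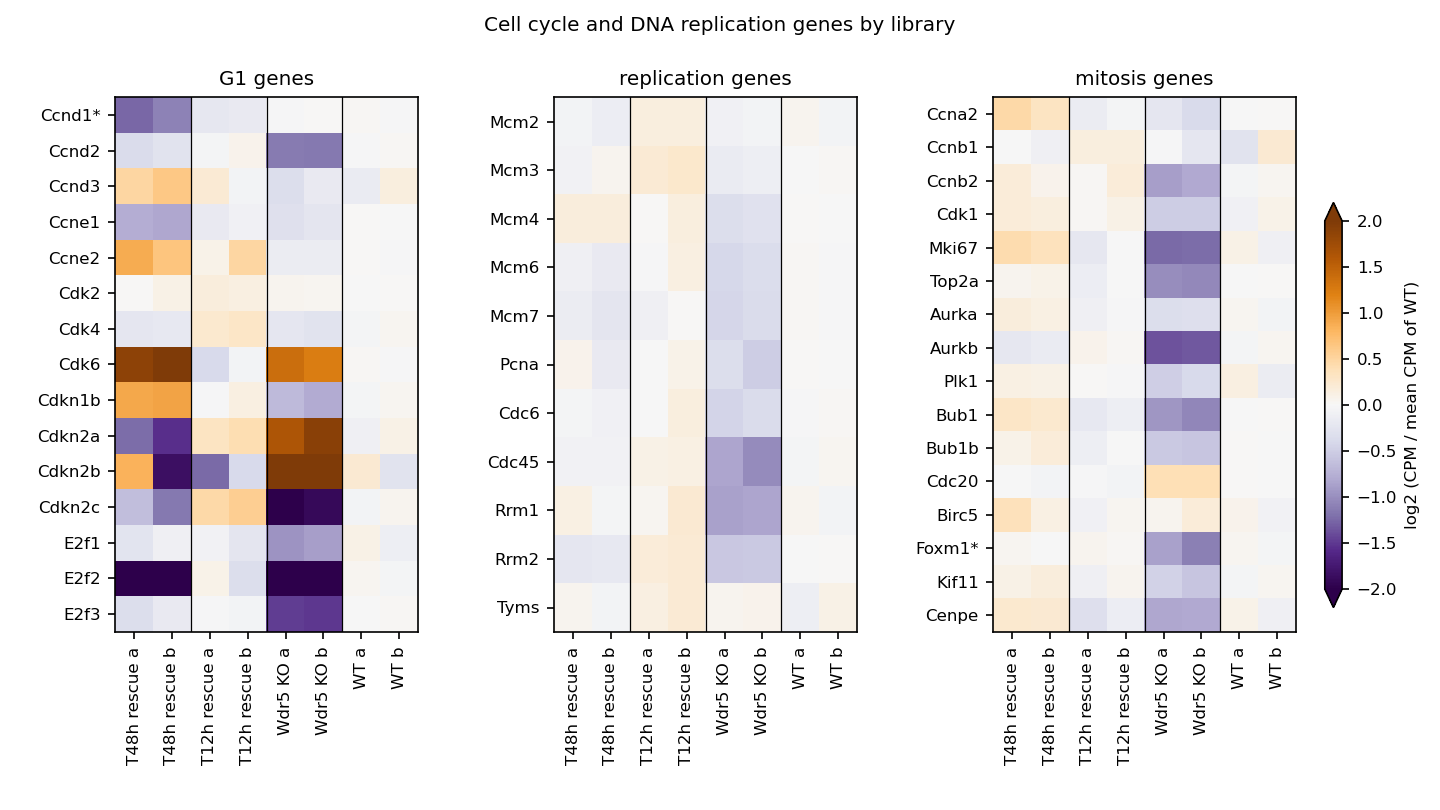
Colour gives the log2 ratio of each gene's CPM in a library to its mean CPM in WT, with genes in rows by class and the 8 libraries in columns (T48h rescue, T12h rescue, Wdr5 KO, WT); colours end at a log2 ratio of 2 either way, and an asterisk marks a joined locus. The KO columns are purple for most genes, while Cdk6, Cdkn2a, Cdkn2b and Cdc20 are orange there.

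The classes differed in how uniform they were. Of the 14 G1 genes, 3 were higher and 8 lower in the KO than in WT, with log2 fold changes between -2.48 and 3.04. These are 21.4% and 57.1% of the class, where all genes gave 31.7% higher and 32.4% lower. Of the 11 replication genes, 0 were higher and 8 lower by edgeR, with 0 higher at an unadjusted p under 0.05 or by DESeq2 or limma, and of the 15 mitosis genes 1 was higher and 12 lower. The class medians were -0.27 for G1, -0.40 for replication and -0.51 for mitosis genes. In the T12h rescue against the KO, 9 G1 genes were higher and 3 lower, 10 replication genes were higher, and 12 mitosis genes were higher and 1 lower. All genes gave 32.8% higher and 32.1% lower. Of these T12h calls, that of Ccna2 was lost under 8 alternatives, those of Ccnd3 and Mcm2 under 4 each and that of Ccne2 under 3. In the T48h rescue against the KO, 8 G1 genes were higher and 3 lower, 8 replication genes were higher, and 12 mitosis genes were higher and 1 lower. All genes gave 34.2% higher and 33.2% lower. Of the replication calls in the T48h rescue, those of Mcm7, Mcm6, Cdc6 and Pcna were lost under 12, 6, 3 and 2 alternatives. For each of them, scaling by library size alone was among these. The count of replication genes lower in either rescue than in the KO was 0 by edgeR, at an unadjusted p under 0.05, and by DESeq2 and limma. Under the other alternatives, Mcm2 was called lower in the T48h rescue than in the KO in 2 and Tyms in 1. In the T12h rescue against the KO the medians lay close together, at 0.48 for G1, 0.45 for replication and 0.50 for mitosis. In the T48h rescue against the KO they were 0.77, 0.34 and 0.68 in that order. The differences between the class medians were not tested.

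**Figure D2:**
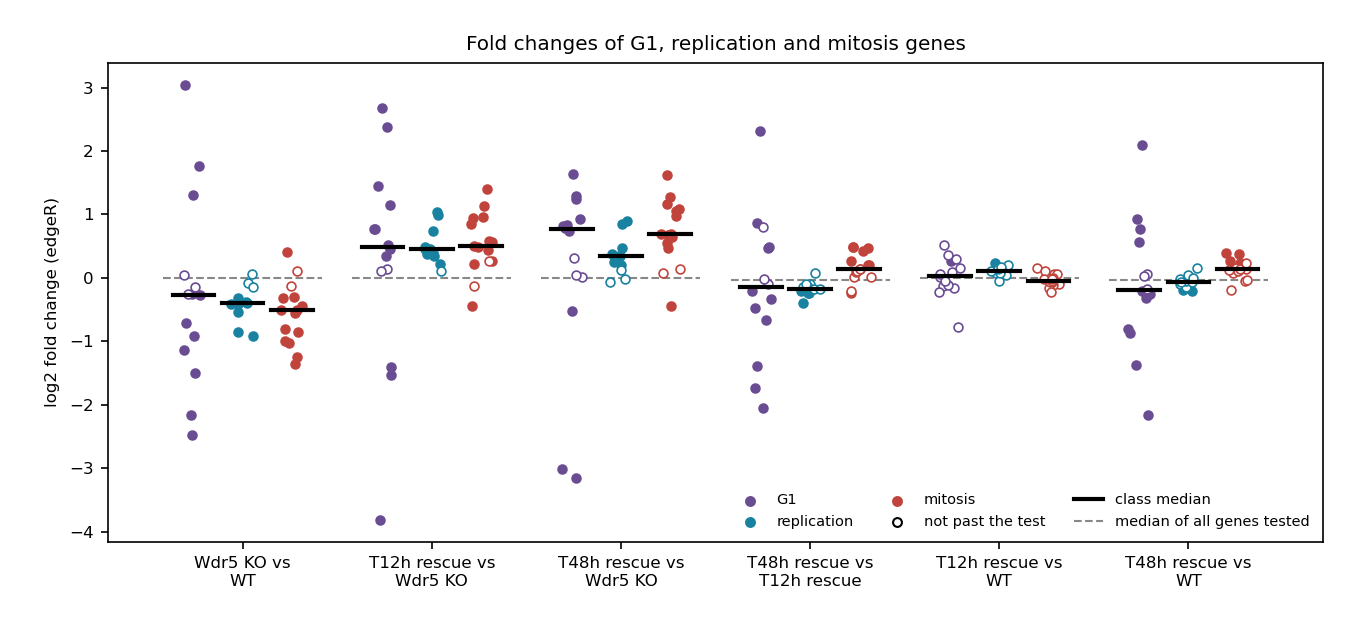
Each point is the log2 fold change of 1 gene in 1 of 6 comparisons, by class; filled points passed edgeR's test and open points did not, thick bars are class medians and dashed lines the median of all genes tested. G1 genes spread over the widest range in each comparison, and replication and mitosis genes over narrower ranges.

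Within a library, the classes can also be followed as the median log2 CPM relative to each gene's mean over the 8 libraries. For mitosis genes this was 0.246 and 0.225 in the T48h rescue, 0.02 and 0.11 in the T12h rescue, -0.42 and -0.44 in the KO and 0.12 and 0.14 in WT. For replication genes it was 0.02 and -0.05 in the T48h rescue, 0.10 and 0.23 in the T12h rescue, -0.30 and -0.27 in the KO and 0.12 and 0.09 in WT. In each class both KO libraries were below all other libraries. On this scaling the T48h rescue had the highest values of the mitosis class, and its replication values were below those of the T12h rescue and WT.

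**Figure D3:**
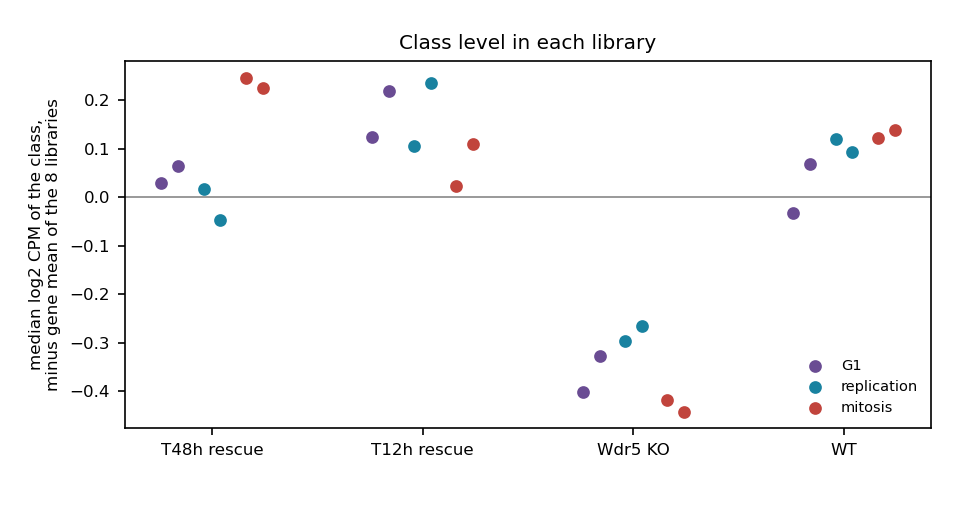
Each point is the median over a class of log2 CPM minus the gene's mean over the 8 libraries, for 1 library, with the groups T48h rescue, T12h rescue, Wdr5 KO and WT along the axis. The KO libraries lie between -0.44 and -0.27 in all 3 classes, below every other library.

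The D-type cyclins, which pair with Cdk4 and Cdk6, did not move as a unit. Ccnd2 was at 413 and 439 CPM in the T48h rescue, 514 and 559 CPM in the T12h rescue, 242 and 240 CPM in the KO and 521 and 541 CPM in WT. It fell by 1.14 on the log2 scale in the KO against WT (SE 0.07, adjusted p = 1.07e-08). The KO libraries were the lowest and did not overlap with any other group. Ccnd3 was at 201 and 221 CPM in the T48h rescue, 165 and 137 CPM in the T12h rescue, 113 and 125 CPM in the KO and 127 and 158 CPM in WT. It was highest in the T48h rescue, with a log2 fold change of 0.83 against the KO (SE 0.11, adjusted p = 2.48e-05) and 0.57 against WT (SE 0.11, adjusted p = 0.00101). The KO was not called against WT for Ccnd3 (log2 fold change -0.26, adjusted p = 0.0618).

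The locus that holds Ccnd1 was at 62.5 and 69.9 CPM in the T48h rescue, 129 and 131 CPM in the T12h rescue, 147 and 150 CPM in the KO and 151 and 147 CPM in WT. Both T48h libraries lay below all others, and the KO and WT overlapped. The T48h rescue was lower than the KO by a log2 fold change of -1.17 (SE 0.08, adjusted p = 2.05e-08) and than WT by the same amount (SE 0.08, adjusted p = 3.66e-08). Its small difference between the T12h rescue and the KO (log2 fold change -0.19, adjusted p = 0.0381) was lost under 7 alternatives.

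Levels can be compared between genes in FPKM, which are divided by transcript length. The 3 D-type cyclins together had 174 ± 10.4 FPKM in the T48h rescue, 178 ± 4.45 FPKM in the T12h rescue, 131 ± 5.58 FPKM in the KO and 178 ± 10.9 FPKM in WT (mean ± SD, n = 2 libraries each). Ccnd3 made up 55.5% ± 0.469 of that sum in the T48h rescue, 39.0% ± 4.21 in the T12h rescue, 44.1% ± 1.78 in the KO and 36.7% ± 3.33 in WT (SD, n = 2). Ccnd2 made up 35.9% in the T48h rescue, 44.4% in the T12h rescue, 28.6% in the KO and 44.1% in WT. Ccnd1 made up 8.63% in the T48h rescue, 16.7% in the T12h rescue, 27.3% in the KO and 19.2% in WT. In FPKM the sums of the T48h rescue and WT were thus within an SD, with Ccnd3 holding the largest share in the T48h rescue and Ccnd2 in WT. In CPM, which are TMM-scaled but not divided by length, the 3 cyclins summed to 703 ± 38.2 in the T48h rescue, 818 ± 13.8 in the T12h rescue, 509 ± 9.44 in the KO and 822 ± 32.7 in WT (mean ± SD, n = 2 libraries each). On that scale the T48h sum lay below that of WT in both libraries.

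The E-type cyclins, which activate Cdk2 at the entry into S phase, moved in opposite directions in the T48h rescue. Ccne1 was at 48.4 and 46.8 CPM in the T48h rescue, 73.0 and 78.1 CPM in the T12h rescue, 67.2 and 70.0 CPM in the KO and 83.6 and 82.1 CPM in WT. The T48h libraries were the lowest, with a log2 fold change of -0.80 against WT (SE 0.08, adjusted p = 3.18e-06). Ccne1 in the KO fell by 0.27 against WT (adjusted p = 0.00968), which did not pass the test without replicate a of WT or of the KO (adjusted p up to 0.0605). Ccne2 was at 53.8 and 46.4 CPM in the T48h rescue, 31.3 and 41.0 CPM in the T12h rescue, 26.5 and 26.4 CPM in the KO and 29.6 and 28.9 CPM in WT. The T48h libraries were the highest, with a log2 fold change of 0.77 against WT (SE 0.14, adjusted p = 0.000385). The share of Ccne2 in the summed FPKM of both genes was 38.8% ± 1.88 in the T48h rescue, 22.9% ± 2.54 in the T12h rescue, 19.4% ± 0.447 in the KO and 17.7% ± 0.437 in WT (SD, n = 2).

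**Figure D4:**
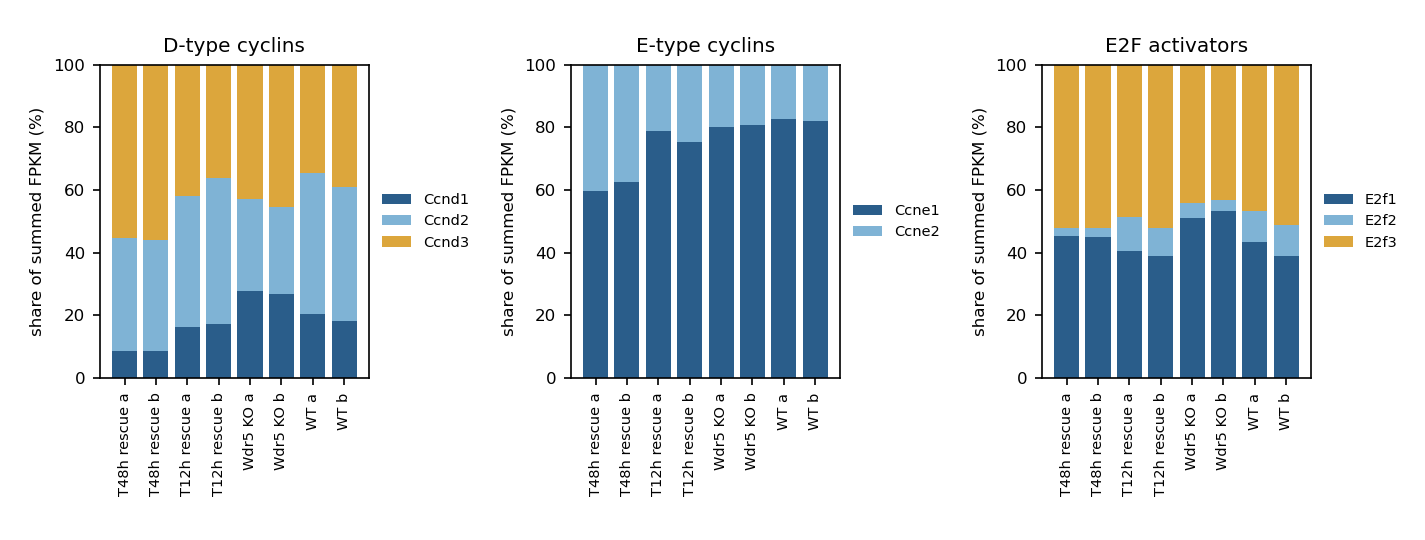
Stacked bars give the percentage of the summed FPKM of each family that each gene contributes in each of the 8 libraries, for the D-type cyclins, the E-type cyclins and the activating E2F genes. Ccnd3 and Ccne2 take their largest shares, 55.5% and 38.8% on average, in the T48h rescue.

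Cdk4 was at 628 and 641 CPM in the T48h rescue, 865 and 894 CPM in the T12h rescue, 627 and 603 CPM in the KO and 712 and 749 CPM in WT. The T12h libraries were the highest, with a log2 fold change of 0.52 against the KO (SE 0.06, adjusted p = 9.85e-06) and 0.27 against WT (SE 0.06, adjusted p = 0.0132). The call for Cdk4 between the T12h rescue and WT was lost without WT replicate a, without T12h replicate b and on FPKM (adjusted p up to 0.313). Cdk6, the other partner of the D-type cyclins, was at 59.3 and 78.1 CPM in the T48h rescue, 12.2 and 15.4 CPM in the T12h rescue, 41.7 and 37.8 CPM in the KO and 16.3 and 15.8 CPM in WT. The KO and the T48h rescue were both above WT and the T12h rescue, with no overlap. The fold was 2.48 for the KO against WT (log2 fold change 1.31, SE 0.15, adjusted p = 6.11e-06) and 4.29 for the T48h rescue against WT (SE 0.15 on the log2 scale, adjusted p = 1.14e-07).

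Cdk6 also had the largest difference between the rescues among the 40 genes, a log2 fold change of 2.32 in the T48h against the T12h rescue (SE 0.15, adjusted p = 3.9e-08). Against the KO, which both comparisons share, its log2 fold change was 0.79 in the T48h rescue (SE 0.15, adjusted p = 0.000351) and -1.53 in the T12h rescue (SE 0.15, adjusted p = 1.31e-06). The rise in the T48h rescue against the KO was not called on FPKM, where Cdk6 was at 4.80 and 6.73 in the T48h rescue and 4.94 and 3.49 in the KO (limma, adjusted p = 0.115 at a pseudocount of 1). Over all alternatives for Cdk6 in that comparison the log2 fold change lay between 0.37 and 0.94 and the adjusted p between 6.66e-08 and 0.141. Cdk4 held at least 98.7% of the summed FPKM of Cdk4 and Cdk6 in every library, so Cdk6 remained the minor transcript. Cdk2, the partner of the E-type cyclins, stayed between 102 and 115 CPM in all 8 libraries and was not called.

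The CDK inhibitors gave the widest range of changes. Cdkn1b (p27), which holds cyclin E and cyclin A complexes inactive, was at 132 and 135 CPM in the T48h rescue, 69.4 and 77.1 CPM in the T12h rescue, 44.7 and 41.0 CPM in the KO and 68.5 and 72.3 CPM in WT. Its order was the T48h rescue above the T12h rescue and WT, which overlapped, and the KO lowest. Cdkn1b fell in the KO against WT by 0.72 on the log2 scale (SE 0.09, adjusted p = 8.14e-06) and rose 3.12-fold in the T48h rescue against the KO (log2 fold change 1.64, SE 0.09, adjusted p = 2.43e-09).

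The neighbouring genes Cdkn2a and Cdkn2b were among the 4 genes that were higher in the KO than in WT, at low levels. Their loci are chr4:89274473-89294619 and chr4:89306289-89311032 on mm10, both on the minus strand. The Cdkn2a locus encodes p16Ink4a and, from another first exon and reading frame, p19Arf, an activator of p53, and these values do not separate the products. Cdkn2a was at 0.735 and 0.588 CPM in the T48h rescue, 2.15 and 2.29 CPM in the T12h rescue, 5.32 and 6.48 CPM in the KO and 1.61 and 1.84 CPM in WT, on 24 to 363 counts per library. The KO was highest, 3.41-fold above WT (log2 fold change 1.77, SE 0.34, adjusted p = 0.000544), and the T48h rescue was lowest, below WT by a log2 fold change of -1.38 (SE 0.37, adjusted p = 0.0078).

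Cdkn2b (p15Ink4b) was at 1.09 and 0.172 CPM in the T48h rescue, 0.259 and 0.463 CPM in the T12h rescue, 4.12 and 6.07 CPM in the KO and 0.721 and 0.505 CPM in WT, on 7 to 281 counts per library. The KO was 8.25-fold above WT (log2 fold change 3.04, SE 0.68, adjusted p = 0.00158), and the other groups overlapped or lay close to each other. The 2 T48h libraries of Cdkn2b differed widely, with 40 counts in replicate a and 7 in replicate b.

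Cdkn2c (p18Ink4c), of the same inhibitor family, went the other way from Cdkn2a and Cdkn2b in the KO. It was at 4.66 and 3.26 CPM in the T48h rescue, 9.92 and 10.8 CPM in the T12h rescue, 1.35 and 1.94 CPM in the KO and 6.93 and 7.54 CPM in WT. The KO was 4.45-fold below WT (log2 fold change -2.15, SE 0.28, adjusted p = 1.58e-05). Cdkn2c rose in the T12h rescue against the KO by a log2 fold change of 2.67 (SE 0.28, adjusted p = 2.1e-06) and less in the T48h rescue, which lay below the T12h rescue (log2 fold change -1.39, SE 0.26, adjusted p = 0.000659).

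Cdkn1a (p21), a p53 target outside the 42 genes, was at 66.2 and 72.4 CPM in the T48h rescue, 83.4 and 75.7 CPM in the T12h rescue, 288 and 295 CPM in the KO and 63.1 and 68.0 CPM in WT. The KO stood alone, 4.45-fold above WT (log2 fold change 2.15, SE 0.08, adjusted p = 1.76e-10). Cdkn1c (p57), the third CIP/KIP inhibitor, was at 119 and 106 CPM in the T48h rescue, 25.97 and 21.8 CPM in the T12h rescue, 13.8 and 13.0 CPM in the KO and 52.0 and 53.8 CPM in WT. The T48h rescue was highest, 8.38-fold above the KO (log2 fold change 3.07, SE 0.12, adjusted p = 1.09e-10), and the T12h rescue stayed below WT (log2 fold change -1.15, SE 0.11, adjusted p = 2.96e-05).

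**Figure D5:**
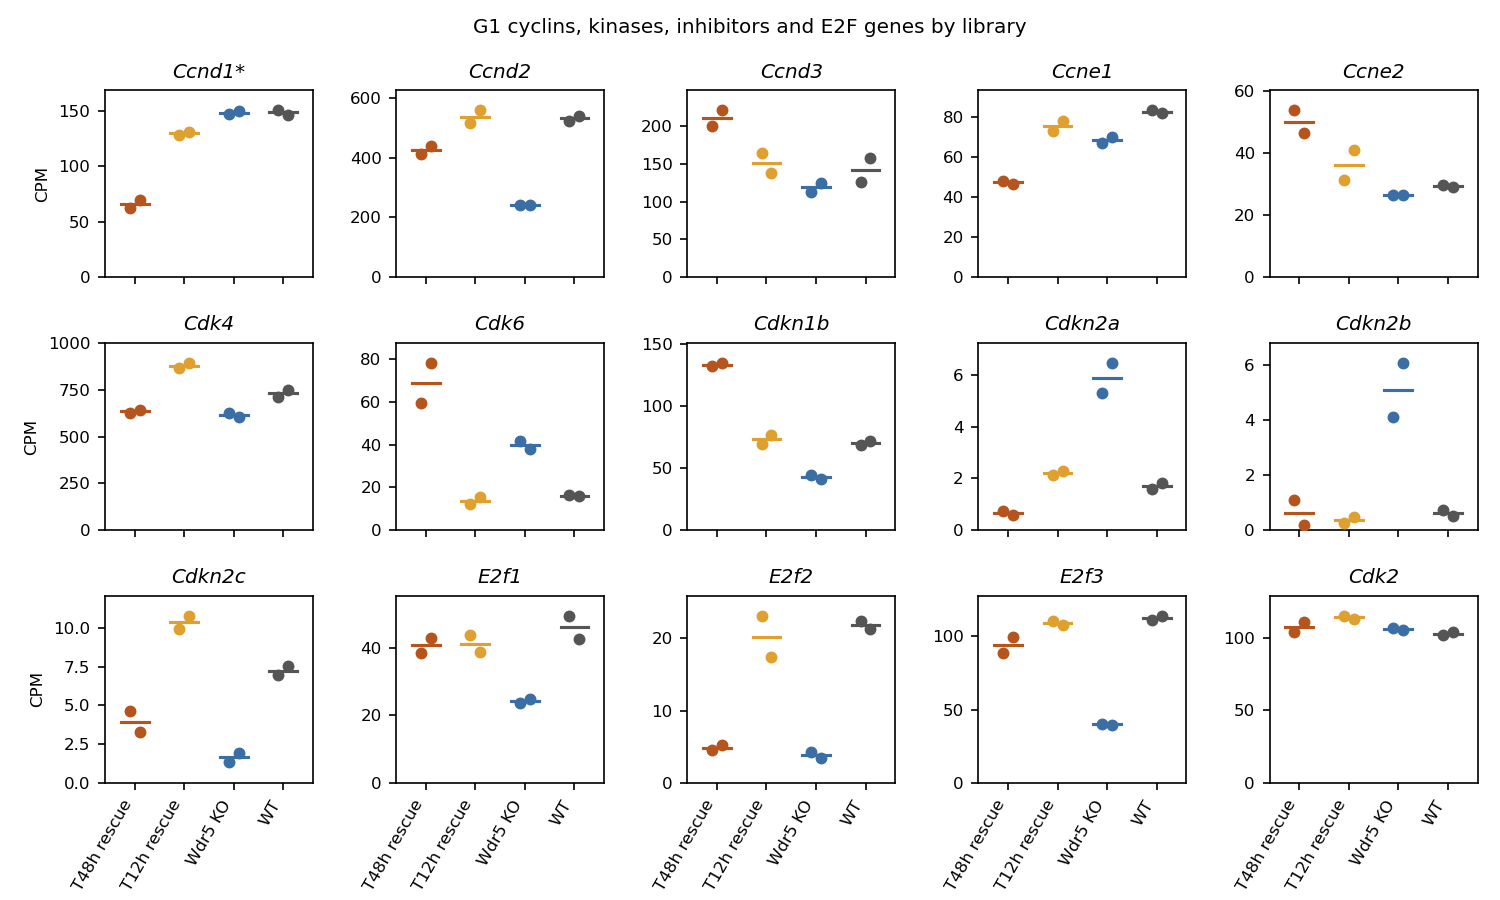
Points are the CPM of single libraries and bars the group means for 15 G1 genes, with the groups T48h rescue, T12h rescue, Wdr5 KO and WT from left to right and axes that start at 0; the asterisk marks the joined Ccnd1 locus. E2f2 is near 5 CPM or below in both the T48h rescue and the KO, while E2f3 is low in the KO alone.

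The activating E2F factors, which drive transcription of S-phase genes, were all 3 lower in the KO than in WT. E2f3 was at 88.9 and 99.4 CPM in the T48h rescue, 110 and 108 CPM in the T12h rescue, 40.4 and 39.4 CPM in the KO and 111 and 114 CPM in WT. The KO lay below WT, with a log2 fold change of -1.49 (SE 0.08, adjusted p = 4.49e-09), and both rescues were well above the KO. E2f1 was at 38.6 and 42.8 CPM in the T48h rescue, 43.7 and 38.9 CPM in the T12h rescue, 23.7 and 24.9 CPM in the KO and 49.5 and 42.7 CPM in WT. The KO lay below WT, with a log2 fold change of -0.92 (SE 0.12, adjusted p = 1.47e-05), and the other 3 groups overlapped.

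E2f2 was at 4.55 and 5.20 CPM in the T48h rescue, 23.1 and 17.4 CPM in the T12h rescue, 4.33 and 3.43 CPM in the KO and 22.5 and 21.3 CPM in WT. It was 5.59-fold lower in the KO than in WT (log2 fold change -2.48, SE 0.20, adjusted p = 1.86e-07). The T12h rescue was level with WT in range, and the T48h rescue stayed 4.48-fold below WT (log2 fold change -2.16, SE 0.20, adjusted p = 1.11e-06) with no call against the KO (log2 fold change 0.32, SE 0.20, adjusted p = 0.18). E2f2 was lower in the T48h than in the T12h rescue by a log2 fold change of -2.06 (SE 0.20, adjusted p = 1.69e-06). In FPKM the 3 E2F genes summed to 32.2 ± 2.48 in the T48h rescue, 37.4 ± 2.23 in the T12h rescue, 17.6 ± 0.378 in the KO and 40.1 ± 1.57 in WT (SD, n = 2). E2f2 supplied 2.72% of that sum in the T48h rescue, 9.77% in the T12h rescue, 4.21% in the KO and 9.87% in WT.

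The bases just before the transcription start are shown for E2f3 and Cdkn1b, G1 genes that hold a motif there and were called in 5 of the 6 comparisons. They come from RefSeq on GRCm38.p6, the assembly of mm10, and cover the 150 bases before the start, at chr13:29986064-29986213 on the minus strand and chr6:134920251-134920400 on the plus strand. Capitals mark matches, on either strand, to an E2F motif (TTTCCCGC, TTTGGCGC or TTCCCGCC), to the CCAAT box bound by NF-Y, or to TTTGAA, the core of the cell cycle homology region (CHR).
E2f3: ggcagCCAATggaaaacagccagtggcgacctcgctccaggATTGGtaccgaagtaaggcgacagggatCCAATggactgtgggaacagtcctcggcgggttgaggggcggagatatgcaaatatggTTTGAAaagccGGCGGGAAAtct
Cdkn1b: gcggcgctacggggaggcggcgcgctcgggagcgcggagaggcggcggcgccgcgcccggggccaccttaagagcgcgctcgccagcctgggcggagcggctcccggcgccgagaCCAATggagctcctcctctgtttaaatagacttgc
In E2f3 a pair of overlapping E2F matches begins 12 and 11 bases before the start, after a CHR match and 3 CCAAT matches. The first and last E2F motif overlap each other by design, and a match is a description of letters, not a site. Over the 250 bases before the start, 35 of the 42 genes with 41 starts could be searched. An E2F motif was present at 17.6% of 17 starts of G1 genes, 36.4% of 11 starts of replication genes and 0% of 13 starts of mitosis genes, against 2.69% of 32851 starts in the whole table.

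Of the 11 replication genes, 8 were lower in the KO than in WT, against 32.4% of all genes. Mcm2, Mcm3 and Tyms were not called, and log2 fold changes of the class lay between -0.92 and 0.06. Cdc45, a part of the helicase that unwinds DNA at the fork, was at 71.5 and 72.0 CPM in the T48h rescue, 80.6 and 81.8 CPM in the T12h rescue, 42.1 and 37.2 CPM in the KO and 73.4 and 77.0 CPM in WT. The KO was 1.89-fold lower than WT (log2 fold change -0.92, SE 0.09, adjusted p = 8.88e-07) and no pair of the other groups was called. Rrm1, the large subunit of ribonucleotide reductase, which makes deoxynucleotides, was at 486 and 435 CPM in the T48h rescue, 461 and 525 CPM in the T12h rescue, 246 and 250 CPM in the KO and 463 and 430 CPM in WT. The KO lay below WT, with a log2 fold change of -0.85 (SE 0.08, adjusted p = 9.37e-07), and the rescues overlapped with WT.

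Rrm2, the small subunit of the same enzyme, was at 241 and 248 CPM in the T48h rescue, 318 and 327 CPM in the T12h rescue, 192 and 194 CPM in the KO and 281 and 283 CPM in WT. The groups did not overlap: the T12h rescue was highest, then WT, then the T48h rescue, and the KO lowest. The T12h rescue was not called against WT (log2 fold change 0.20, adjusted p = 0.0583). Rrm2 rose by a log2 fold change of 0.74 in the T12h rescue against the KO (SE 0.06, adjusted p = 3.26e-07) and by 0.34 in the T48h rescue (SE 0.06, adjusted p = 0.000391), and the T48h rescue was below the T12h rescue (log2 fold change -0.40, SE 0.06, adjusted p = 0.000152). Pcna, the sliding clamp of the polymerases, was at 131 and 110 CPM in the T48h rescue, 124 and 132 CPM in the T12h rescue, 98.1 and 87.6 CPM in the KO and 125 and 123 CPM in WT. The KO was lowest (log2 fold change -0.42 against WT, SE 0.09, adjusted p = 0.00157). Cdc6, which loads the MCM helicase on origins, was at 58.5 and 56.4 CPM in the T48h rescue, 59.8 and 66.7 CPM in the T12h rescue, 44.1 and 46.7 CPM in the KO and 59.3 and 61.0 CPM in WT. The KO was again the lowest group, below WT (log2 fold change -0.41, SE 0.09, adjusted p = 0.00151).

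The MCM genes, whose products form the ring of the replicative helicase, changed unequally. Mcm4 was at 410 and 410 CPM in the T48h rescue, 370 and 407 CPM in the T12h rescue, 292 and 300.4 CPM in the KO and 370 and 365 CPM in WT. Mcm4 fell in the KO against WT (log2 fold change -0.31, SE 0.07, adjusted p = 0.00125) and rose in the T48h rescue against the KO (log2 fold change 0.47, SE 0.07, adjusted p = 3.79e-05). Mcm2 was at 408 and 388 CPM in the T48h rescue, 469 and 470 CPM in the T12h rescue, 398 and 407 CPM in the KO and 441 and 408 CPM in WT. The KO and WT were not called apart for Mcm2 (log2 fold change -0.08, SE 0.07, adjusted p = 0.323), and it was higher in the T12h rescue than in the KO (log2 fold change 0.22, adjusted p = 0.00956), a call lost under 4 alternatives (adjusted p up to 0.0931). Mcm6 and Mcm7 fell in the KO against WT (log2 fold changes -0.38 and -0.40, adjusted p = 0.000387 and 0.000257). Mcm3 was not called there (log2 fold change -0.14, adjusted p = 0.0752) and was higher in the T12h rescue than in WT (log2 fold change 0.23, adjusted p = 0.0347). The call for Mcm3 against WT was lost under 10 alternatives (adjusted p up to 0.207). Tyms, which makes thymidylate, lay between 63.3 and 79.0 CPM in all libraries and was not called.

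In the T48h rescue against the T12h rescue, 0 replication genes were higher by edgeR, at an unadjusted p under 0.05, and by DESeq2 and limma, and 4 were lower (Mcm2, Mcm3, Mcm6 and Rrm2), with a class median of -0.17 against -0.03 for all genes. By this comparison the class went the other way from the mitosis genes, of which 7 were higher and 1 lower with a median of 0.14. Of those 7 calls, Aurka and Bub1b were lost under 12 alternatives each and Birc5 under 11. All genes tested gave 24.9% higher and 25.3% lower. With scaling by library size alone the mitosis median was 0.01 and the replication median -0.31, where the median of all genes was -0.17, a shift of -0.14. The class difference was not tested.

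The same 150 bases before the start are shown for Rrm2 and Mcm6, replication genes that hold a motif and were called in 5 and 4 comparisons, at chr12:24708104-24708253 on the plus strand and chr1:128359706-128359855 on the minus strand.
Rrm2: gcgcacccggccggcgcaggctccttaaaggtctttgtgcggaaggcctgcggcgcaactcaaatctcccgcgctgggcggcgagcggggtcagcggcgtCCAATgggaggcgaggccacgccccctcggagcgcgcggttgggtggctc
Mcm6: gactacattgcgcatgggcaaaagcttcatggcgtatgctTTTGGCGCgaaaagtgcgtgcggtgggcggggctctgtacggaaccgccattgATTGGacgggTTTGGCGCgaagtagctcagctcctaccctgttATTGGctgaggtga
Capitals mark a single CCAAT match in Rrm2, and in Mcm6 a pair of TTTGGCGC matches 110 and 47 bases before the start and a pair of CCAAT matches read on the other strand. A CCAAT match was present at 81.8% of the 11 starts of replication genes, against 35.3% of those of G1 genes and 33.8% of all starts. A CHR match was at 18.2% of the replication starts and 16.0% of all starts.

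Mitosis genes gave the lowest class median in the KO. Mki67, a protein of the surface of mitotic chromosomes and a marker of cycling cells, was at 1449 and 1380 CPM in the T48h rescue, 936 and 1074 CPM in the T12h rescue, 454 and 461 CPM in the KO and 1162 and 1008 CPM in WT. The KO was 2.37-fold below WT (log2 fold change -1.25, SE 0.08, adjusted p = 3.47e-08), and the T48h rescue was the highest group. Mki67 rose 3.09-fold in the T48h rescue against the KO (log2 fold change 1.63, SE 0.09, adjusted p = 2.33e-09). It was also above WT there (log2 fold change 0.38, SE 0.08, adjusted p = 0.00198), a call that was lost with library size alone or without WT replicate b (adjusted p up to 0.0734).

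Aurkb, the kinase that corrects faulty attachments of chromosomes to the spindle, was at 117 and 122 CPM in the T48h rescue, 144 and 138 CPM in the T12h rescue, 52.5 and 53.8 CPM in the KO and 132 and 139 CPM in WT. The KO was 2.55-fold below WT (log2 fold change -1.35, SE 0.07, adjusted p = 4.4e-09), with the lowest fold change of the class. Top2a, which untangles sister DNA molecules, was at 1258 and 1288 CPM in the T48h rescue, 1103 and 1208 CPM in the T12h rescue, 604 and 590 CPM in the KO and 1206 and 1218 CPM in WT. The KO was alone at the low end (log2 fold change -1.02 against WT, SE 0.07, adjusted p = 2.12e-08). Bub1, a kinase of the spindle checkpoint, was at 313 and 303 CPM in the T48h rescue, 223 and 237 CPM in the T12h rescue, 132 and 123 CPM in the KO and 255 and 257 CPM in WT. Bub1 was lowest in the KO (2.0-fold below WT, SE 0.07 on the log2 scale, adjusted p = 4.4e-08) and highest in the T48h rescue (log2 fold change 0.42 against the T12h rescue, SE 0.07, adjusted p = 0.000198).

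The cyclins of the later cycle did not behave alike. Ccnb2, a partner of Cdk1 in mitosis, was at 138 and 128 CPM in the T48h rescue, 124 and 138 CPM in the T12h rescue, 66.0 and 69.9 CPM in the KO and 119 and 125 CPM in WT. The KO lay below WT, with a log2 fold change of -0.85 (SE 0.08, adjusted p = 9.83e-07). Ccnb1, the other B-type cyclin here, was at 80.5 and 74.9 CPM in the T48h rescue, 89.0 and 89.6 CPM in the T12h rescue, 78.9 and 68.9 CPM in the KO and 66.9 and 94.1 CPM in WT. Its WT libraries lay further apart than most groups, and it was not called in the KO against WT (log2 fold change -0.12, SE 0.13, adjusted p = 0.427). Ccna2, the A-type cyclin of S phase and G2, ran between 417 and 461 CPM in the T48h rescue, 303 and 326 CPM in the T12h rescue, 256 and 286 CPM in the KO and 333 and 337 CPM in WT. The T48h rescue was the highest for Ccna2 (log2 fold change 0.39 against WT, SE 0.08, adjusted p = 0.00103).

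Cdc20, the activator of the anaphase-promoting complex, was the mitosis gene that was higher in the KO. It was at 174 and 169 CPM in the T48h rescue, 173 and 169 CPM in the T12h rescue, 233 and 232 CPM in the KO and 177 and 175 CPM in WT. The KO stood above the other 6 libraries (log2 fold change 0.40 against WT, SE 0.07, adjusted p = 0.000134). The Cdc20 locus of the files also takes in exons of Elovl1, a neighbouring coding gene, so its reads may not all be from Cdc20. Birc5 (survivin), a partner of Aurkb, was at 135 and 114 CPM in the T48h rescue, 99.3 and 108 CPM in the T12h rescue, 109 and 119 CPM in the KO and 111 and 99.8 CPM in WT. The KO and WT overlapped for Birc5, and it was not called there (log2 fold change 0.11, SE 0.10, adjusted p = 0.338).

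The remaining mitosis genes fell in the KO against WT, with log2 fold changes of -0.32 for Aurka, -0.44 for Plk1, -0.51 for Cdk1 and Kif11, -0.55 for Bub1b and -0.81 for Cenpe. Aurka and Plk1 are kinases of spindle assembly and mitotic entry, Cdk1 is the mitotic kinase, Kif11 and Cenpe are spindle and kinetochore motors, and Bub1b is a checkpoint protein. Their adjusted p lay between 1.72e-06 for Cenpe and 0.00151 for Aurka. The locus that holds Foxm1, the factor that drives G2 and mitosis genes, was at 181 and 176 CPM in the T48h rescue, 185 and 179 CPM in the T12h rescue, 96.6 and 82.5 CPM in the KO and 182 and 172 CPM in WT. Its KO libraries were the lowest (log2 fold change -0.98 against WT, SE 0.08, adjusted p = 2.85e-07), and the locus also holds exons of Rhno1 and Tex52.

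The bases before the start are shown for Mki67 and Bub1, mitosis genes that hold a motif and were called in 5 comparisons, at chr7:135716380-135716529 and chr2:127831860-127832009, both on the minus strand.
Mki67: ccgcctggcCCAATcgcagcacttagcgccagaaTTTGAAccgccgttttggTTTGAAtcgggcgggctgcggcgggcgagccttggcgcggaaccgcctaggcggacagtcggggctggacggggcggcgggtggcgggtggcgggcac
Bub1: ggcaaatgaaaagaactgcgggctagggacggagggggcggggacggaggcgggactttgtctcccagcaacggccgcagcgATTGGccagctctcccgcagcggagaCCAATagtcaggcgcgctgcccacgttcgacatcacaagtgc
In Mki67 the capitals are a CCAAT match and a pair of CHR matches, and in Bub1 a CCAAT match on each strand. Of the 13 starts of mitosis genes, 92.3% held CCAAT, against 33.8% of all starts, and 46.2% held the CHR core, against 16.0%. Birc5 was the mitosis gene searched without a CCAAT match. CCAAT and TTTGAA are short and frequent, these shares were not tested, and the genes with a match include Cdc20, which was higher in the KO, and Ccnb1, which was not called.

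Other genes of the same pathways, from lists of 19 G1, 40 replication and 48 mitosis genes, were also counted. Of the other mitosis genes, 2 were higher and 41 lower in the KO than in WT, with a median log2 fold change of -0.66. All genes tested gave 31.7% higher and 32.4% lower there. On chromosome 8, 1 of the 2 genes of the list was higher and 1 lower, against 1 higher and 40 lower of the 46 elsewhere. In this list Cdc25b, the phosphatase that starts mitosis by activating Cdk1, was at 29.9 and 35.1 CPM in the T48h rescue, 60.8 and 62.2 CPM in the T12h rescue, 12.6 and 11.9 CPM in the KO and 82.0 and 77.4 CPM in WT. Its groups were fully apart, with a log2 fold change of -2.70 in the KO against WT (SE 0.11, adjusted p = 2.8e-10). Cenpf, a kinetochore protein, and Ncapd2, a condensin subunit, fell in the KO too (log2 fold changes -1.41 and -1.02). In the T48h rescue against the T12h rescue 18 of these 48 genes were higher and 6 lower, with Hmmr, a spindle protein, rising by a log2 fold change of 0.91 (SE 0.09, adjusted p = 3.16e-06). All genes tested gave 24.9% higher and 25.3% lower in that comparison.

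Of the other 40 replication genes, 6 were higher and 22 lower in the KO than in WT, with a median of -0.26, where all genes gave 31.7% and 32.4%. Uhrf1, which brings DNA methyltransferase to replicated DNA, fell (log2 fold change -0.96, adjusted p = 6.96e-08), and Orc6, a subunit of the origin recognition complex, rose (log2 fold change 0.96, adjusted p = 6.32e-07). Orc6 and 6 more of these genes lie on chromosome 8, where 3 of the 7 were higher and 1 lower in the KO than in WT, against 3 higher and 21 lower of the 33 on other chromosomes. In the T12h rescue against the KO 29 of the 40 were higher and 3 lower, where all genes gave 32.8% and 32.1%. In the T48h rescue against the KO 18 were higher and 10 lower, where all genes gave 34.2% and 33.2%. Between the rescues 1 was higher and 17 lower in the T48h than in the T12h rescue, against 24.9% and 25.3% of all genes. The 17 lower genes included Fen1, the flap nuclease of lagging-strand synthesis (log2 fold change -0.83, SE 0.08, adjusted p = 2.24e-06), and Rpa1, which coats single-stranded DNA (log2 fold change -0.69, SE 0.07, adjusted p = 3.44e-06). In the T12h rescue against WT 8 were higher and 0 lower by edgeR, against 7.9% and 6.11% of all genes. In the list 5 were lower at an unadjusted p under 0.05 and 0 by DESeq2 and limma. The smallest adjusted p was that of Gins2, a helicase subunit (log2 fold change 0.63, SE 0.08, adjusted p = 0.000135). Gins2 lies on chromosome 8, as do 7 of the 8 genes called higher. All 7 genes of the list on that chromosome were called higher in the T12h rescue than in WT, against 1 of the 33 on other chromosomes, whose median log2 fold change was -0.01.

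Of the other 19 G1 genes, 5 were higher and 10 lower in the KO than in WT, while 12 were higher and 3 lower in the T12h rescue than in the KO and 12 were higher and 4 lower in the T48h rescue than in the KO. In the same 3 comparisons, all genes gave 31.7% and 32.4%, 32.8% and 32.1%, and 34.2% and 33.2%. On chromosome 8, 2 of the 3 genes of this list were higher and 0 lower in the KO than in WT. On other chromosomes 3 of the 16 were higher and 10 lower. Skp2, the ubiquitin ligase subunit that marks p27 for degradation, was at 146 and 147 CPM in the T48h rescue, 152 and 164 CPM in the T12h rescue, 55.1 and 51.1 CPM in the KO and 141 and 145 CPM in WT. It was lower in the KO than in WT (log2 fold change -1.43, SE 0.08, adjusted p = 3.56e-09), as was Ccng2, an atypical cyclin (log2 fold change -1.83, adjusted p = 2.2e-09). Rb1, the retinoblastoma gene, was lower in the T48h rescue than in the T12h rescue (log2 fold change -1.08, SE 0.16, adjusted p = 9.19e-05).

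Reads of 10 of the 42 loci could be shared with a second coding gene whose exons lie in the same locus on GENCODE vM21, since no source used here gives the strand setting. Besides the joined loci and Cdc20 these are Ccnd3 (Bysl), Ccne2 (Ints8), Cdk2 (Pmel), Cdk4 (Tspan31), Mcm7 (Cops6), Cdc45 (Ufd1) and Ccna2 (Exosc9). None of the 42 loci lies on chromosome 8.

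Genes of chromosome 8 stood apart from all other genes in each comparison with WT. Of 852 tested genes there, 50.9% were higher and 12.1% lower in the T48h rescue than in WT, against 22.4% and 24.0% of the 15278 genes on other chromosomes. In the T12h rescue against WT, 53.9% of chromosome 8 genes were higher and 1.41% lower, against 5.34% and 6.38% elsewhere. In the KO against WT, 51.8% were higher and 17.8% lower, against 30.6% and 33.2% elsewhere. The median log2 fold change of chromosome 8 genes against WT was 0.39 in the T48h rescue, 0.49 in the T12h rescue and 0.49 in the KO. Against the KO it was -0.08 in the T48h rescue and 0.04 in the T12h rescue. Genes on other chromosomes had medians between -0.06 and 0.00 in these 5 comparisons. Left out of the fit, the genes of chromosome 8 changed the counts of called cell cycle and replication genes by at most 1, with 9 and not 8 genes higher in the T48h rescue than in WT.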

How the data were processed

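RNA of mouse embryoid bodies was sequenced after an RNeasy kit with DNase treatment and TruSeq library preparation, per the labels' protocols. The submitters' processing notes name TopHat2 2.1.1, SAMtools 1.5, deepTools and Cufflinks 2.2.1 with the build mm10. Which annotation and strand setting they used is not given in the sources used here.

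Per the file headers, the deposited tables hold estimated counts and FPKM for 28432 loci, with a status for each value and with 96 sample columns not used here. The deposited estimated counts were whole fragments multiplied by a factor per column (0.630 to 1.29), and 89.8% to 92.0% of values were whole within 0.02 fragments once it was divided out. Counts from technical columns, paired by a chi-square per degree of freedom of 1.60 to 1.83 within and 9.07 to 16.5 between pairs, were summed and rounded to 8 libraries. Left out were 5143 loci without a name (3.16% to 6.12% of counts) and 8 loci whose status marked too many fragments. FPKM, which the authors deposited with both technical columns, were averaged over them and used for levels between genes and as an alternative.

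edgeR 4.0.16 in R 4.3.3 tested 16130 genes (filterByExpr, TMM, quasi-likelihood F-test, 4 groups in 1 fit, 4 residual degrees of freedom, common biological coefficient of variation 12.6%, Benjamini-Hochberg adjustment, threshold 0.05). CPM are divided by TMM-scaled library sizes. limma 3.58.1, DESeq2 1.42.0, other scalings and filters and leaving out each library were alternatives. Code was tested on simulated data. The genes, lists and tests were chosen with earlier results of these data known. Any of the 42 genes could be named. G1 genes get a value in every library, as do the 4 largest and the smallest change of the other classes in the KO against WT and in each rescue against the KO. Cdc20, Ccna2, Foxm1, Cdkn1c, Cdc25b and Skp2 were given library values after theirs were seen. Named genes of other lists had the 3 smallest adjusted p of a list in a comparison. Counts by chromosome were added after the values were seen. Promoters came from RefSeq, with motifs searched on both strands.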

Additional observations from a re-analysis of the deposited data

Results flagged for a closer look

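The effects of inducing human WDR5 at T48h and at T12h, both against the same KO, differed by edgeR's test of the T48h against the T12h rescue for 23 of the 40 genes and for the joined Ccnd1 locus. Of the 40 genes, 11 were higher and 12 lower in the T48h rescue, against 24.9% and 25.3% of all genes tested. Whether the 40 genes differed more often than all genes was not tested. Among G1 genes the log2 difference was 2.32 for Cdk6, 0.87 for Cdkn1b, 0.48 for Ccnd3 and 0.47 for Ccne2. It was -2.06 for E2f2, -1.74 for Cdkn2a, -1.39 for Cdkn2c, -0.97 for the Ccnd1 locus, -0.67 for Ccne1, -0.47 for Cdk4, -0.33 for Ccnd2 and -0.21 for E2f3. Among replication genes it was -0.40 for Rrm2, -0.24 for Mcm2 and Mcm3 and -0.20 for Mcm6. Among mitosis genes it was 0.49 for Mki67, 0.48 for Ccna2, 0.46 for Cenpe, 0.42 for Bub1, 0.26 for Birc5, 0.20 for Aurka and Bub1b and -0.24 for Aurkb. The calls of Aurka and Bub1b were lost under 12 alternatives each, that of Birc5 under 11, that of E2f3 under 10 and that of Mcm6 under 5. Those of Ccne2 and Aurkb were lost under 2 each and that of Ccnd3 under 1.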

How the results depend on the processing

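Over the 42 loci and 6 comparisons 148 calls were made, of which 134 to 148 were kept under each alternative, and none turned its sign. Calls were also gained, 19 with library size alone, 9 with upper-quartile scaling and 7 without the filter. Aurkb, not called in the T48h rescue against WT, was called lower there under 10 alternatives. With library size alone, 19 genes were lower in the T48h than in the T12h rescue, and 5 were higher and 17 lower in the T48h rescue than in WT. That scaling moved the median of all genes by -0.18 in the T48h rescue against the KO and against WT, and upper-quartile scaling by -0.14 and -0.12. The T48h against WT mitosis median was then -0.04 with library size alone, against 0.13. For the T12h rescue against WT, 1 gene was higher with upper-quartile scaling or library size alone and 0 with limma on FPKM at either pseudocount. There, 1 gene was lower with either scaling, without the filter, with DESeq2 and with limma at either pseudocount. Without chromosome 8 the genes higher in the T12h rescue than in WT numbered 795, against 1275, of which 459 lie on that chromosome. The lower ones numbered 828, against 986, of which 12 lie there. The cause of the other changes was not tested.

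Leaving out 1 library gave 7 to 10 genes higher in the T48h than in the T12h rescue, with 7 without either T12h replicate or T48h replicate a. It gave 0 to 2 higher and 0 to 1 lower in the T12h rescue than in WT, with 0 higher without WT replicate a or T12h replicate b. It gave 5 to 8 higher in the T48h rescue than in WT, with 5 without WT replicate b. Over all genes, 616 to 1414 were higher and 454 to 1160 lower in the T12h rescue than in WT, and both lows came without WT replicate a. A lone library was assumed to vary like the other groups. The factor per column left in the deposited values, an alternative chosen after seeing the data, kept all 148 calls. No paired analysis was possible because the column names carry no replicate number. With 2 libraries a group, changes of low genes such as Cdkn2b rest on few counts.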
